A study of Homo sapiens with 4 samples.

Results

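Around AGR2, AGR3 and AHR on chromosome 7, the peaks of the HNF1 libraries formed a group of 14 distinct regions, 9 of them found in both replicates. All peaks of both deposited lists were taken whose midpoint lay between 16600 and 17700 kb of chromosome 7 in the hg19 genome build. The window was selected on the positions of the peaks themselves. The number of peaks there, their recurrence, spacing and scores are therefore given as a description, with no test. The window held 11 of the 5060 peaks of replicate 1 and 12 of the 4955 peaks of replicate 2. It held 14 of the 7108 distinct regions of both lists. The assay was ChIP-seq, in which chromatin is immunoprecipitated and its DNA sequenced, in Caco2, an established human line derived from a colorectal adenocarcinoma that resembles enterocytes in culture. The cells were grown in low-glucose DMEM with serum, and the labels list no treatment. The series describes 2 immunoprecipitations and 2 inputs without antibody, and each immunoprecipitation has 1 peak list, called against the input of the same number. The antibody field names HNF1, whereas the extraction text names a FOXA2 antibody, and which factor was immunoprecipitated is not settled here. The libraries are called HNF1 libraries after the antibody field and the titles only. The labels leave unsaid if the 2 replicates are separate cultures, so their spread may be technical.

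The labelled target of the immunoprecipitation, HNF1, is a homeodomain transcription factor that binds DNA as a dimer at a palindromic site. AGR2 and AGR3 are neighbouring paralogues of the protein disulfide isomerase family, which assists the folding of proteins in the endoplasmic reticulum. AGR2 is known in the intestine for its role in mucin production by goblet cells. TSPAN13 encodes a tetraspanin, a membrane protein with several transmembrane passes. AHR encodes the aryl hydrocarbon receptor, a ligand-activated transcription factor that pairs with ARNT, induces genes of xenobiotic metabolism such as CYP1A1, and in the gut responds to dietary and microbial compounds.

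None of the 14 regions lay at the start of any of the 4 genes. The promoters of AGR2 and AHR are shown because these genes flank the stretch that held 9 of the 14 regions, and because they differ in base composition. Both are from RefSeq in build GRCh38.p14, whose positions are not those of hg19, and run from 250 bases before to 50 bases after the start. Capitals mark the only match to any of the motifs searched, a GATA site in AGR2.
AGR2 promoter, chr7:16804950-16805249, minus strand: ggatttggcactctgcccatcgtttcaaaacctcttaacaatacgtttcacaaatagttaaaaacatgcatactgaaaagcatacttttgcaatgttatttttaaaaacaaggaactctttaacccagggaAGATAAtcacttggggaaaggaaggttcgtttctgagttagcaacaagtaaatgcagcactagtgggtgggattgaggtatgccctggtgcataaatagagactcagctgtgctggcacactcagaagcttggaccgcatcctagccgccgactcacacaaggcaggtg
AHR promoter, chr7:17298402-17298701, plus strand: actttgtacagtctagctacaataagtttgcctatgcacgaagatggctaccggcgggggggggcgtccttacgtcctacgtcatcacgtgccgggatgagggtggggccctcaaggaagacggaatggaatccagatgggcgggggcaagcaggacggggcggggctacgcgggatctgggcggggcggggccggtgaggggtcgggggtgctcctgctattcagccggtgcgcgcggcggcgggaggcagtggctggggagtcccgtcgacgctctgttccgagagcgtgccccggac

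The AGR2 promoter had 43.7% G and C and 6 CG pairs, and that of AGR3 had 38% and 1. The AHR promoter had 67.3% G and C and 30 CG pairs, and that of TSPAN13 had 71.3% and 30. Over the 35116 promoters of the table the median G and C content was 58.7%, so the AGR2 and AGR3 promoters lay below it and those of AHR and TSPAN13 above it. All 4 genes were found in the table, and 7 motifs were searched on both strands. The HNF1 full site, taken as GTTAAT and ATTAAC separated by 1 base with at most 2 of the 12 letters different, was in none of the 4 promoters and in 1.31% of all promoters. The part site GTTAAT, which is contained in the full site, was in none of the 4 and in 6.88% of all. The FOXA motifs TGTTTAC and TGTTTGC were in none of the 4 and in 7.17% of all. The GATA motif AGATAA was in the AGR2 promoter once, beginning 119 bases before the start, in none of the other promoters of these genes, and in 10.3% of all promoters. The HNF4 motif CAAAGTCCA was in 0.384% of all promoters, the CDX motif TTTATGG in 2.54% and the AP-1 motif TGANTCA in 7.71%, and none of the 4 genes had any of them. A missing match says only that these letters are not in this window of 300 bases. The sequences under the peaks themselves were not used here.

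In gene order along the chromosome, ANKMY2, BZW2, TSPAN13, AGR2, AGR3, AHR and SNX13 follow each other as the protein-coding genes of the area. Between AGR3 and AHR the annotation also lists long noncoding RNA genes and pseudogenes. Their positions were not used, so a region there may lie within or nearer to one of them. Gene positions used here are hg19 positions rounded to 1 kb, so distances to genes are approximate by about 1 kb. TSPAN13 spans 16793 to 16824 kb on the plus strand, AGR2 16831 to 16845 kb and AGR3 16899 to 16922 kb on the minus strand, and AHR 17338 to 17386 kb on the plus strand. The stretch of 416 kb between AGR3 and AHR, which lies upstream of the starts of both genes, held 7 of the 14 regions. The 54 kb between AGR2 and AGR3 held 2, TSPAN13 held 1, the part of the window before TSPAN13 held 1, and the 314 kb after AHR held 3. No region lay within AGR2, AGR3 or AHR, or in the 7 kb between TSPAN13 and AGR2. The AHR start was the nearest of the 4 gene starts to 9 of the 14 regions. The AGR3 and TSPAN13 starts were nearest to 2 each and the AGR2 start to 1. Only these 4 starts were compared. The AHR start stands apart from the others, so it is also the nearest start for a large part of the window.

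**Figure D1:**
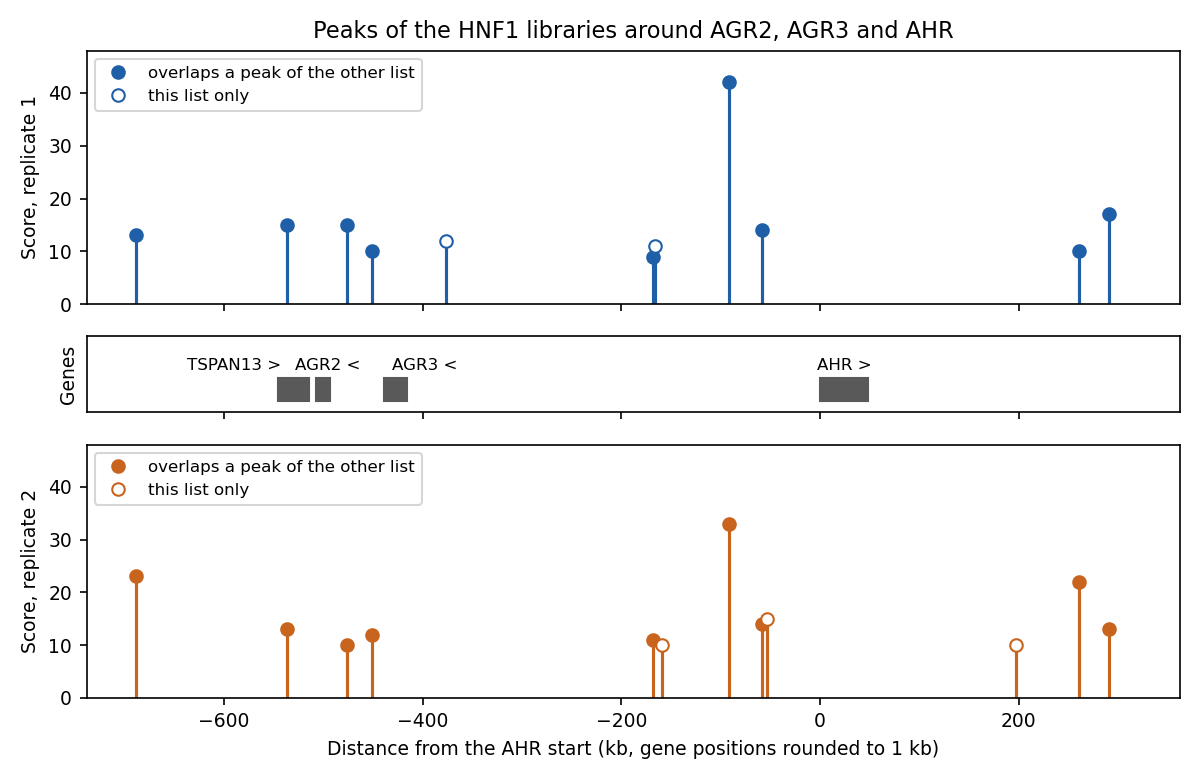
Peaks of the window in replicate 1 (top) and replicate 2 (bottom), with the 4 genes between them (arrowheads give the strand). The x axis is the distance from the AHR start in kb and the y axis the peak score, filled points overlap a peak of the other list and open points do not, and the highest peak of both lists stands about 92 kb before AHR.

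The highest scored region of the window stood upstream of AHR, at chr7:17246230-17246456, about 92 kb before its start. Here the score is read as the number of tags of a peak scaled to 10000000 tags per library, rounded by the authors' run. For single peaks this reading is only approximate. This region scored 42 in replicate 1, with a 95% Poisson interval of 31.1 to 55.2, and 33 in replicate 2, with an interval of 25.3 to 42.4. These intervals cover Poisson counting error only. Sequenced tags are not independent molecules, so the intervals may be too narrow, and the 2 libraries count tags over different widths. It was the first of the window in both lists, with 185 higher scored peaks in the whole of replicate 1 and 182 in replicate 2. On chromosome 7, 11 peaks scored higher in each list. In replicate 1 its interval did not overlap that of any other peak of the window, and in replicate 2 it overlapped those of the peaks about 688 kb before and 261 kb after the AHR start.

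Further sites upstream of AHR were lower. The shared region at chr7:17279329-17279595, about 59 kb before AHR, scored 14 in both replicates. A peak of replicate 2 alone at chr7:17284343-17284569 scored 15 and lay 4.99 kb from it, about 54 kb before AHR. Farther out, about 168 kb before AHR, the shared region at chr7:17169983-17170209 scored 9 in replicate 1 and 11 in replicate 2. Of all peaks, 25.5% scored lower than this in replicate 1 and 45.5% in replicate 2, and the tag thresholds of the calling corresponded to 7.54 and 7.04. A peak of replicate 1 alone with a score of 11 stood 1.67 kb from that region at chr7:17171693-17171835, and a peak of replicate 2 alone with a score of 10 stood 8.48 kb from it at chr7:17178462-17178688. The remaining region between AGR3 and AHR was a peak of replicate 1 alone at chr7:16961355-16961497, which scored 12, about 39 kb upstream of the AGR3 start.

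Between AGR2 and AGR3, 2 shared regions lay upstream of AGR2 and beyond the end of AGR3. The first, at chr7:16861721-16861958, was about 17 kb upstream of the AGR2 start and scored 15 in replicate 1 and 10 in replicate 2. The second, at chr7:16886918-16887197, was about 42 kb upstream of the AGR2 start and 35 kb downstream of the AGR3 start, and scored 10 and 12. Their scores crossed between the replicates, and the counting intervals overlapped (8.94 to 23.8 and 5.78 to 16.1 for the first, 5.2 to 17.6 and 7.46 to 18.7 for the second). Neither site stood above the other in both replicates.

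TSPAN13 held the only region inside one of the 4 genes, at chr7:16801938-16802165, about 9 kb after its start. It scored 15 in replicate 1 and 13 in replicate 2. A shared region at chr7:16649545-16649771 stood about 143 kb before TSPAN13, on the side of BZW2 and ANKMY2. Positions of these neighbours were not used, so the region may lie within or nearer to one of them. It scored 13 in replicate 1 and 23 in replicate 2. Its place in the lists differed accordingly, with 1983 higher scored peaks in replicate 1 and 503 in replicate 2.

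Downstream of AHR, the shared region at chr7:17598479-17598723, about 261 kb after the start, scored 10 in replicate 1 and 22 in replicate 2. The counting intervals of 5.2 to 17.6 and 15.5 to 30.1 overlapped narrowly. Of the 2907 shared pairs of the genome, 2.2% had a higher ratio of replicate 2 over replicate 1 than this region, which had a log2 ratio of 1.14, and 6.16% had a higher one than the region before TSPAN13, with 0.82. The last shared region, at chr7:17628494-17628720 and about 291 kb after the AHR start, scored 17 and 13. A peak of replicate 2 alone at chr7:17535501-17535727 scored 10. None of the 3 lay nearer than about 198 kb to the AHR start.

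**Figure D2:**
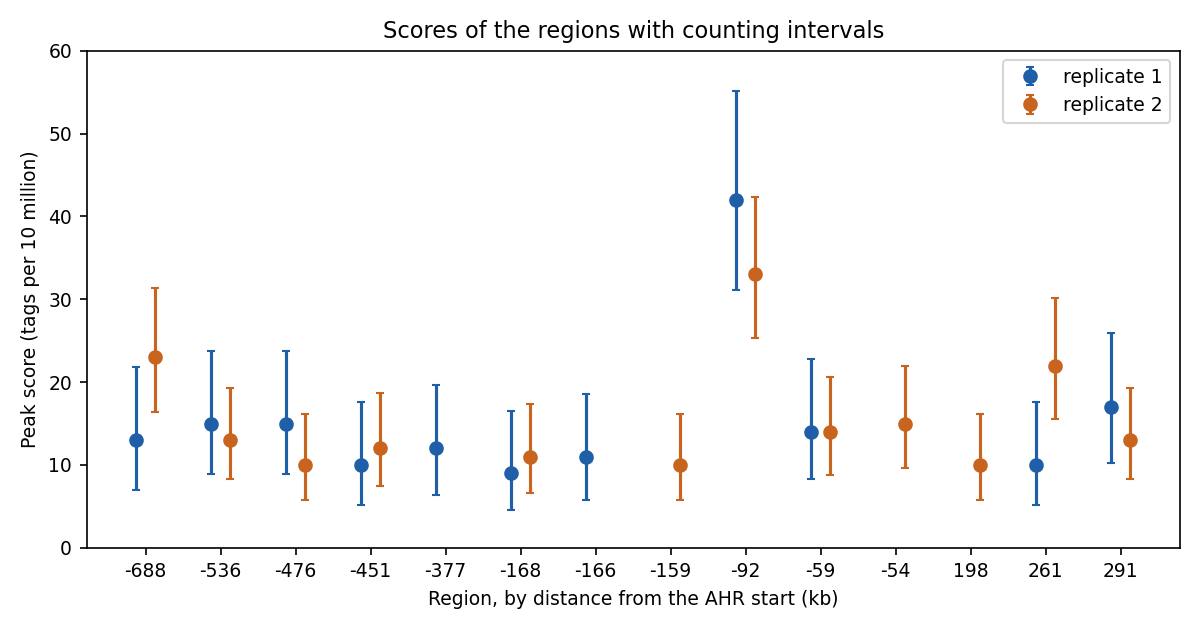
Scores of the 14 regions in replicate 1 and replicate 2, ordered and labelled by distance from the AHR start in kb, with 95% Poisson intervals of the tag counts. The region at -92 kb scored 42 and 33, the regions at -688 and 261 kb were higher in replicate 2 with 23 and 22, and a missing point means that the list has no peak there.

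Recurrence in the window was 9 of 11 peaks in replicate 1 (81.8%, Wilson 95% interval 52.3% to 94.9%) and 9 of 12 in replicate 2 (75%, 46.8% to 91.1%). Over the whole lists 57.5% of replicate 1 peaks and 58.6% of replicate 2 peaks overlapped a peak of the other list by at least 1 bp. The intervals treat the peaks as independent draws, and both counts rest on the same 9 pairs. The window had also been chosen on the peaks, so nothing is read from the higher counts. The midpoints of the 9 pairs lay 24 to 95 bp apart, with a median of 43 bp, against a median of 27 bp over all 2907 pairs. The pair between AGR2 and AGR3 with 95 bp overlapped by 39.6% of the replicate 2 peak and 62.9% of the replicate 1 peak. For the pair 59 kb before AHR with 82 bp these shares were 45.4% and 72%. The other 7 overlapped by 55.1% to 63% of the replicate 2 peak and 87.4% to 100% of the replicate 1 peak. Deposited peaks were 143 bp wide in replicate 1 and 227 bp in replicate 2. A share of 63% therefore means that the replicate 1 peak lay wholly inside the other.

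Scores in the window ran from 9 to 42 with a median of 13 in replicate 1 and from 10 to 33 with a median of 13 in replicate 2. The medians of the whole lists were 12 and 11, and their upper quartiles 18 and 16. The peak 92 kb before AHR was above the upper quartile in both lists, and the peaks about 688 kb before and 261 kb after the AHR start were above it in replicate 2 only, with 88.5% and 87% of that list scored lower. At or above the median of its list stood 7 of 11 peaks in replicate 1, against 52.5% of the list, and 9 of 12 in replicate 2, against 54.5%. Shared peaks of the window had medians of 14 and 13, and all shared peaks of the genome had 15 and 14. Of the 9 pairs, 4 scored higher in replicate 1, 4 in replicate 2 and 1 the same, while over all pairs 56% scored higher in replicate 1 and 36.2% in replicate 2. The 5 peaks found in 1 list scored 10 to 15, within the range of the shared ones.

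**Figure D3:**
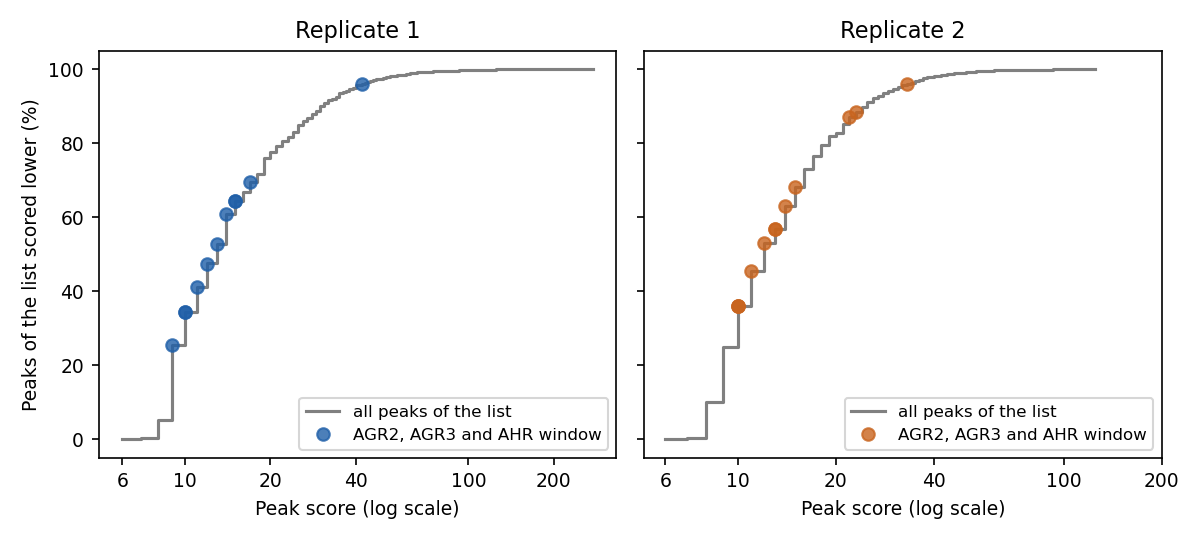
Share of all peaks of a list with a lower score (y axis, percent) by peak score (x axis, log scale), with the peaks of the window as points on the curve of the whole list, replicate 1 at left and replicate 2 at right. The highest point, with 96.1% and 96% of the list below it, is the region 92 kb before AHR, and the lowest points have 25.5% and 36.1% below them.

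Neighbouring regions of the window were 1.67 to 251 kb apart, with a median of 59.8 kb. The median between neighbouring regions of the genome was 141 kb. Nothing is read from this difference, because the window was chosen on its peaks. Neighbouring shared regions were 25.2 to 319 kb apart, with a median of 68 kb. None of the 9 had another shared region within 10 kb, compared with 10.3% of the shared regions of the genome, and with so few regions nothing is read from this count. Of the 5 regions found in 1 list, 3 lay within 10 kb of a shared region, against 10.1% of such regions in the genome. With so few regions, this count is not read either. The 3 regions were the peaks 54, 159 and 166 kb before AHR. They lay farther from the shared region than the distance below which a second peak was not called, 284 bp in replicate 1 and 452 bp in replicate 2. Peaks were also called against the surrounding 10000 bp, and the effect of these settings was not tested. The longest stretches without a region inside the window were 251 kb, which contains AHR itself, and 209 kb in the space between AGR3 and AHR.

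No region of either list lay in the 749.3 kb before the first region of the group, nor in the 2311 kb after the last. At least as long as these were 14.7% and 2.81% of the 7084 stretches between neighbouring regions of the genome. On chromosome 7, 62 of 385 stretches were longer than the one before the group and 13 were longer than the one after it. The window was laid around its own peaks, so these places are no test. The outermost peaks inside the window stood 49.7 kb from its first edge and 71.4 kb from its last edge in both lists. They scored 13 and 17 in replicate 1 and 23 and 13 in replicate 2. The nearest peaks outside stood 795 and 2450 kb from the edges in replicate 1, with scores of 18 and 8, and 700 and 2240 kb in replicate 2, with scores of 8 and 8.

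**Figure D4:**
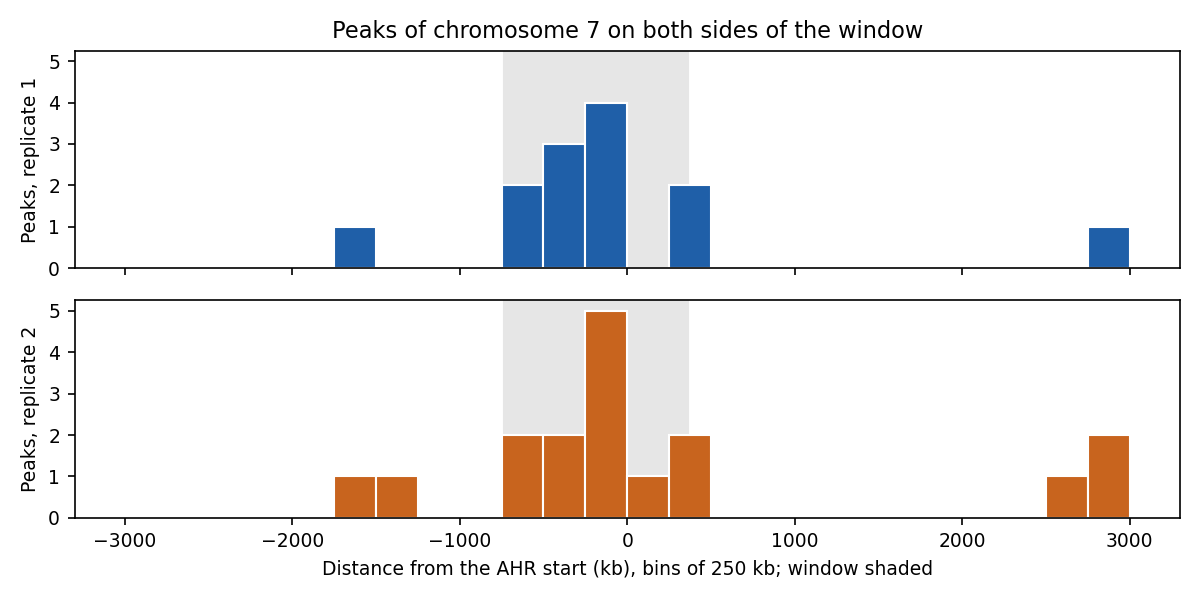
Number of peaks in bins of 250 kb (y axis) by distance from the AHR start in kb (x axis), replicate 1 above and replicate 2 below, with the window shaded. Most peaks of the window lie before AHR, as does most of its length, and the bins from 500 kb to 2500 kb after AHR are empty in both lists.

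Set beside windows of the same length of 1100 kb, laid end to end over all chromosomes, the 9 shared regions were exceeded by 1 of 2810 windows and equalled by 3. The median window held 0 shared regions, the mean was 1.03 and the maximum was 11. This place is no test, because the window was laid around its own peaks, whereas fixed windows can split groups elsewhere. The density of the window was 10 peaks per Mb in replicate 1 and 10.9 in replicate 2, against 1.61 and 1.85 along chromosome 7. Among the densest windows elsewhere, chosen by their counts as well, 11 shared regions at chr2:43184361-43603296 had a median score of 33 in replicate 1 and of 28 in replicate 2. For 11 at chr10:60228412-61309998 these medians were 19 and 23, and for 10 at chr5:123542775-124353804 they were 15.5 and 20.5. The closest shared neighbours in these groups were 0.456, 0.814 and 0.878 kb apart, against 25.2 kb around AGR2, AGR3 and AHR. The differences between these groups were not tested.

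**Figure D5:**
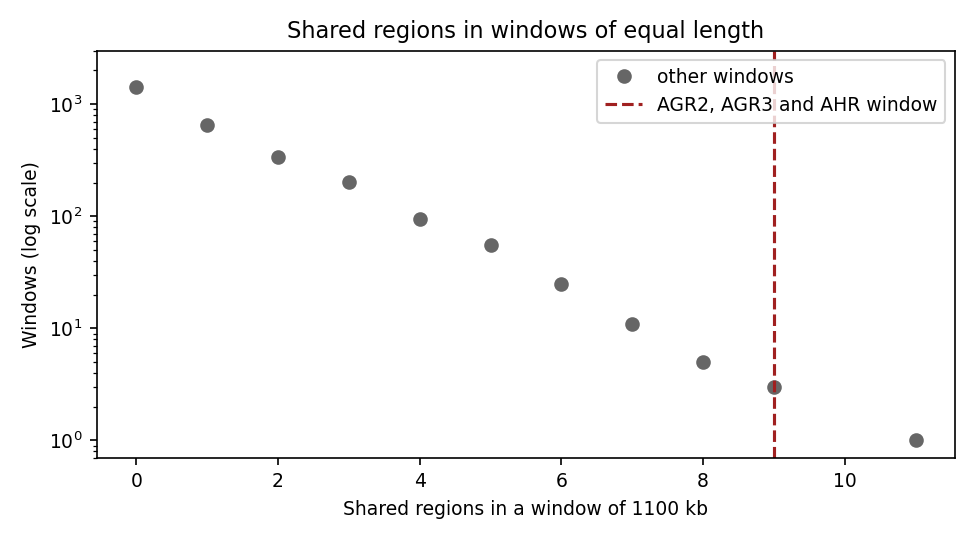
Number of windows of 1100 kb (y axis, log scale) by the number of shared regions they hold (x axis), with the window of AGR2, AGR3 and AHR as a dashed line at 9. Of 2810 windows, 1418 held none and 1 held 11, and these fixed windows can split groups of regions, as windows laid around the peaks held 11, 11 and 10 at 3 other places.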

How the data were processed

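Peak lists of the 2 immunoprecipitations labelled HNF1 were used, with 11931439 tags in replicate 1 and 18469659 in replicate 2. Per the file headers, the authors called peaks per library with HOMER findPeaks in factor mode, at a false discovery rate of 0.001 and 4-fold over input and over the surrounding 10000 bp. The size of a peak was set to 142 bp for the first replicate and 226 bp for the second. Per the submitters' processing notes, Bowtie 1.0.0, HOMER 1.2 and hg19 were used. The deposited score was read as tags per 10000000, since the scores of a list summed to 1.002 and 1.006 times the scaled tags in peaks of the headers. The lowest score of both lists, 6, lies below the scaled tag thresholds of 7.54 and 7.04. The reading is therefore approximate for single peaks, as are the intervals built on it. 1 tag is worth 0.838 and 0.541 score units. Poisson intervals used every whole number of tags that rounds to the score. The different peak sizes enter any ratio of scores across lists.

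Peaks overlapping by at least 1 bp were joined into shared regions. Deposited starts count from 0, printed ones from 1. The members, lists and window were chosen with earlier results of these data known. The rule for naming took the 4 genes and all peaks of the window, and neighbours by gene order in RefSeq (GRCh38.p14), which also gave the strand of TSPAN13. Alternatives changed the overlap rule, the score range and the window. The joining of peaks was run on simulated lists, with partners placed close enough to overlap always and the other peaks far away. This checks the code only and says nothing on real pairs lying farther apart. Computations used Python 3.11.15, numpy 2.4.6, pandas 2.3.3, scipy 1.17.1 and matplotlib 3.10.9.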

Additional observations from a re-analysis of the deposited data

How the results depend on the processing

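Restricting both lists to peaks at or above their median score left 7 locus peaks of replicate 1 and 5 shared regions, fewer by construction. Requiring 50% of both peaks to overlap left 7 shared regions, without 1 of the 2 between AGR2 and AGR3 and without the one 59 kb before AHR. Midpoints within 500 bp gave 9. Narrowing the window by 100 kb on each side left 9 and 10 peaks and 7 shared regions. Over these alternatives the shared percentage ran from 63.6% to 81.8% in replicate 1 and from 55.6% to 75% in replicate 2. The shares of the whole lists, 57.5% and 58.6%, hold for the main overlap rule only. They are not given for the alternatives, so the lower percentages cannot be set against them. With windows offset by 50% of their length, 2 windows held more shared regions, against 1. No paired analysis was possible because no result comes from a test and peak lists were used for the immunoprecipitations only. Leaving out a replicate was not possible, since recurrence needs both lists. The planned motif search within peaks was not run, for want of hg19 sequence here. The weaker sites rest on few tags. The lowest score of replicate 1, 9, was read as about 11 tags, with a threshold of 9. That of replicate 2, 10, was read as about 18 to 19 tags, with a threshold of 13. The effect of depth was not tested.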
